A study of Caenorhabditis elegans with 2 samples.

Results

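The neuropeptide and insulin-like genes of Caenorhabditis elegans were taken as all protein-coding genes of the WBcel235 annotation whose name begins with flp-, nlp- or ins-. There were 140 of them among 19973 protein-coding genes, of which 31 were flp, 71 were nlp and 38 were ins genes. Chromatin immunoprecipitation with sequencing (ChIP-seq) located REF-2, a Zic-type zinc finger transcription factor, in whole late embryos. The animals were hermaphrodites of strain OP520, genotype unc-119(tm4063) III; wgIs520, which stably express REF-2 with a C-terminal GFP-FLAG tag from the inserted transgene. They were collected 3 hours after synchronization by egg bleaching, chromatin was sheared by sonication, and the tagged protein was recovered with an antibody against GFP. The study has 1 group of 2 biological replicates of this 1 strain, so both replicates carry the transgene, and no other stage or genotype was analysed here.

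The peak lists were deposited by the authors on the ce11 build. Each list gives a signal per peak in the authors' own units and the position of the peak's summit, its highest point. The optimal list, which passed a threshold on the irreproducible discovery rate between replicates, held 2129 peaks. The pooled relaxed list and the relaxed list of each replicate held 30000 peaks each, and their labels say that they contain background as well as peaks. A relaxed summit is therefore a weak call, and it is given below together with whether each replicate had it. The read depth is unknown, and all intervals given are exact Clopper-Pearson 95% intervals that cover counting error only. Whole animals were used, so signal present in few cells and weak signal in many cells cannot be told apart.

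flp genes encode precursors of FMRFamide-like peptides, ins genes encode insulin-like peptides, and the nlp genes hold the other neuropeptide-like precursors, including a set of epidermal antimicrobial peptides. Precursors are cut and trimmed by processing enzymes inside dense core vesicles, and the released peptides mostly act on G protein-coupled receptors, while insulin-like peptides act on the receptor tyrosine kinase DAF-2. Most of these genes are expressed in small and distinct sets of neurons, and several also in the intestine or the epidermis. REF-2 is known for its roles in the specification of ventral epidermal cells and of the AIY interneurons.

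The strongest sites at these genes are shown as 121 bases of the reference plus strand from RefSeq (ce11), centred on the pooled summit, which is base 61. Capitals mark letters that were searched for: GAGAGAG, the E-box CAGCTG, or GGTTCGA from the B box of tRNA genes, on either strand (a match on the minus strand shows as its reverse complement). The first 4 are all the optimal-list summits in a promoter window of an flp, nlp or ins gene. The next sequence belongs to the summit that differed most between the replicates among those matched in both. The last belongs to the strongest summit inside a coding exon.
ins-39, chrX:1344972-1345092: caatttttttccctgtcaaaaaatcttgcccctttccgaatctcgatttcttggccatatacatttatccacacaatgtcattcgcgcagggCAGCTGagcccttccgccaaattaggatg
flp-23, chrIII:8650381-8650501: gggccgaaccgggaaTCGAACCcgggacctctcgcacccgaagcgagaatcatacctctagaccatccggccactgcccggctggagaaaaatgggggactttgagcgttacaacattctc
flp-32, chrX:15433648-15433768: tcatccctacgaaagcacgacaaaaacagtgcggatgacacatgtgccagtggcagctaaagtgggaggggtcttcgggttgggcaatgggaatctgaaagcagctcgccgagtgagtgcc
nlp-31 and nlp-34, chrV:3979941-3980061: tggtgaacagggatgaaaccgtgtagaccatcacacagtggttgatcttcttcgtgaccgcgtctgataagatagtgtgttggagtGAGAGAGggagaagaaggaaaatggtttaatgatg
ins-19 and ins-31, chrII:3126882-3127002: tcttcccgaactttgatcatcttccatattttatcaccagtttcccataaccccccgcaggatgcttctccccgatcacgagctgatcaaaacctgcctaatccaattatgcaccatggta
nlp-24, chrV:11616396-11616516: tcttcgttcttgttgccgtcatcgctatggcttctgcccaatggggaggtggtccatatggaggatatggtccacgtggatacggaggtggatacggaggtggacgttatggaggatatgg

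Few of the peptide genes carried a strong REF-2 site, and few of all genes did. With a promoter window of 1000 bp upstream to 200 bp downstream of the gene's 5′ end, 5 of the 140 genes had an optimal-list summit, a share of 3.57% (interval 1.17 to 8.14%), against 1257 of 19973 protein-coding genes, or 6.29%. They were ins-39, flp-23, flp-32, nlp-31 and nlp-34, and the last pair shared 1 summit. By family there were 2 of 31 flp genes (6.45%), 2 of 71 nlp genes (2.82%) and 1 of 38 ins genes (2.63%). The interval of the 140 genes and that of each family held the share of all genes. At this number of genes neither the whole set nor any family stood apart from the background. Inside the gene bodies the optimal list had no summit at any of the 140 genes, against 611 of all genes, or 3.06%. A count of 0 of 140 has an exact interval up to 2.6%. The gene bodies are short, with a median length of 888 bp for the 140 genes and 2027 bp for all genes. Optimal-list summits had a density of 0 per Mb of the 140 gene bodies, 197.031 kb in sum, against 11.5 per Mb over all gene bodies. Over so short a total length very few summits would be counted at either density, so the 0 does not show a depletion.

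**Figure D1:**
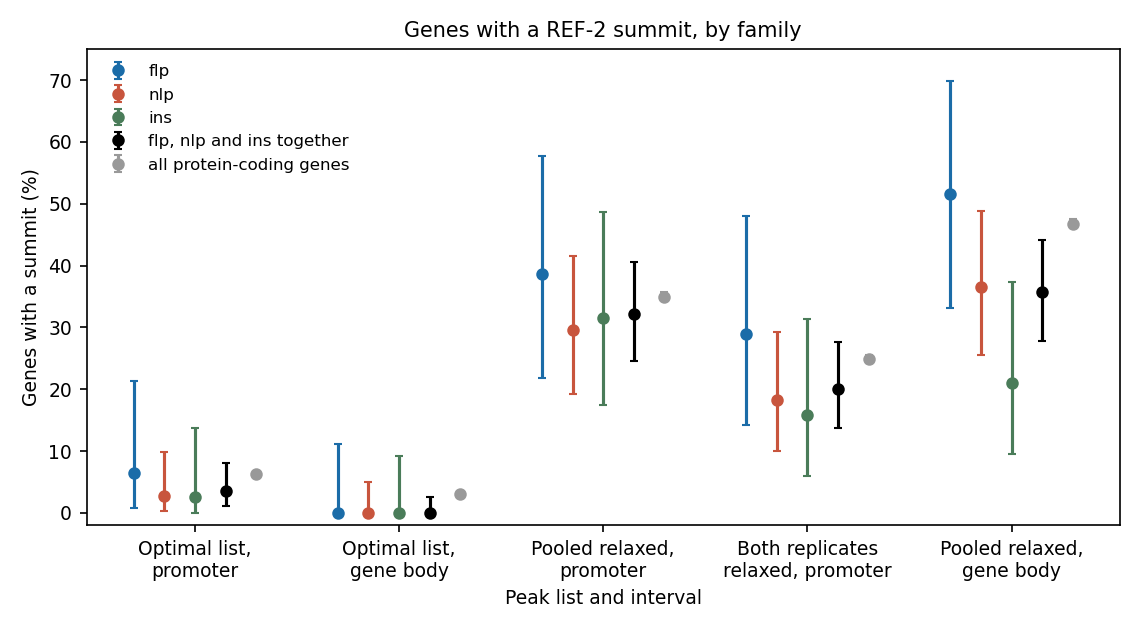
Share of genes (%) with a REF-2 summit in each peak list and interval, for the flp, nlp and ins families, all 140 genes together and all 19973 protein-coding genes; points are shares and bars exact 95% intervals. The share of the 140 genes lies below that of all genes in each of the 5 columns, and the bars of the 3 families overlap one another.

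ins-39, an insulin-like peptide gene on chromosome X, had the strongest promoter summit of the 140 genes. It lay 611 bp upstream of the 5′ end in intergenic sequence and in no other gene's promoter window. Its signal was 126.9 in replicate 1 (rank 255 of that list) and 88.2 in replicate 2 (rank 843), and 209.2 in the pooled list (rank 477). The −log10 q value in the pooled list was 2.50. The window around this summit held 1 E-box. ins-39 had a second summit at 143 bp downstream of its 5′ end, in its own coding exon, with a signal of 31.1 (replicate 1), 44.4 (replicate 2) and 80.4 (pooled). Both replicates thus had both ins-39 summits, with the upstream one the higher in each.

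flp-23 on chromosome III, an FMRFamide-like peptide gene, had a summit 326 bp upstream with a signal of 75.2 in replicate 1 (rank 898), 85.1 in replicate 2 (rank 922) and 157.0 in the pooled list. This summit lay in the exon of a tRNA gene (WBGene00023002), and the printed sequence holds GGTTCGA, part of the B box, a promoter element of tRNA genes read by RNA polymerase III factors. flp-32 on chromosome X had a summit 79 bp upstream with a signal of 56.0 in replicate 1 (rank 1743), 52.6 in replicate 2 (rank 3014) and 108.6 in the pooled list. That summit lay in the exon of the noncoding RNA gene R03A10.10. Both optimal-list summits of the flp family were thus at a noncoding gene, and whether the signal belongs to the peptide gene or to its neighbour was not tested. Among the 972 optimal-list summits in any promoter window, 206 were within 200 bp of a noncoding gene. GGTTCGA was found within 100 bp of 2 of the 53 pooled promoter summits of the peptide genes (3.77%), against 147 of 7269 pooled summits in any promoter window (2.02%), and in 6.91% of all promoter windows of 1201 bp. It was searched after the flp-23 summit was seen to lie in a tRNA gene.

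nlp-31 and nlp-34 are neighbours on chromosome V with opposite orientation, and 1 intergenic summit lay between them, 54 bp upstream of nlp-31 and 867 bp upstream of nlp-34. Its signal was 40.2 in replicate 1 (rank 4173), 64.2 in replicate 2 (rank 1790) and 106.7 in the pooled list (rank 2071). The lowest signal in the optimal list was 105.506, so this summit and that of flp-32 were the peptide gene summits just inside the threshold. The strongest summit just outside it, at flp-15, had a pooled signal of 92.3 (rank 3046). A second summit 65 bp inside nlp-34, in its coding exon, had 27.8 (replicate 1), 33.9 (replicate 2) and 61.2 (pooled).

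nlp-31 and nlp-34 stand in a run of 6 nlp genes over 10946 bp, with nlp-30, nlp-29, nlp-28 and nlp-27 following. nlp-29 and nlp-31 are antimicrobial peptide genes of the epidermis, and nlp-29 is a standard reporter of fungal infection and wounding. In this run the pooled list had 3 summits, all at the nlp-34 and nlp-31 end or between nlp-31 and nlp-30. The one 982 bp upstream of nlp-30 had a pooled signal of 39.4 and was matched in neither replicate. At nlp-29 the pooled list had no summit, and replicate 1 alone had a weak one at 111 bp downstream, with a signal of 18.9 (rank 28775 of 30000). nlp-28 and nlp-27 had no summit in a promoter window or gene body in any list. The single optimal-list summit of the run lay 4424 bp upstream of nlp-29.

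**Figure D2:**
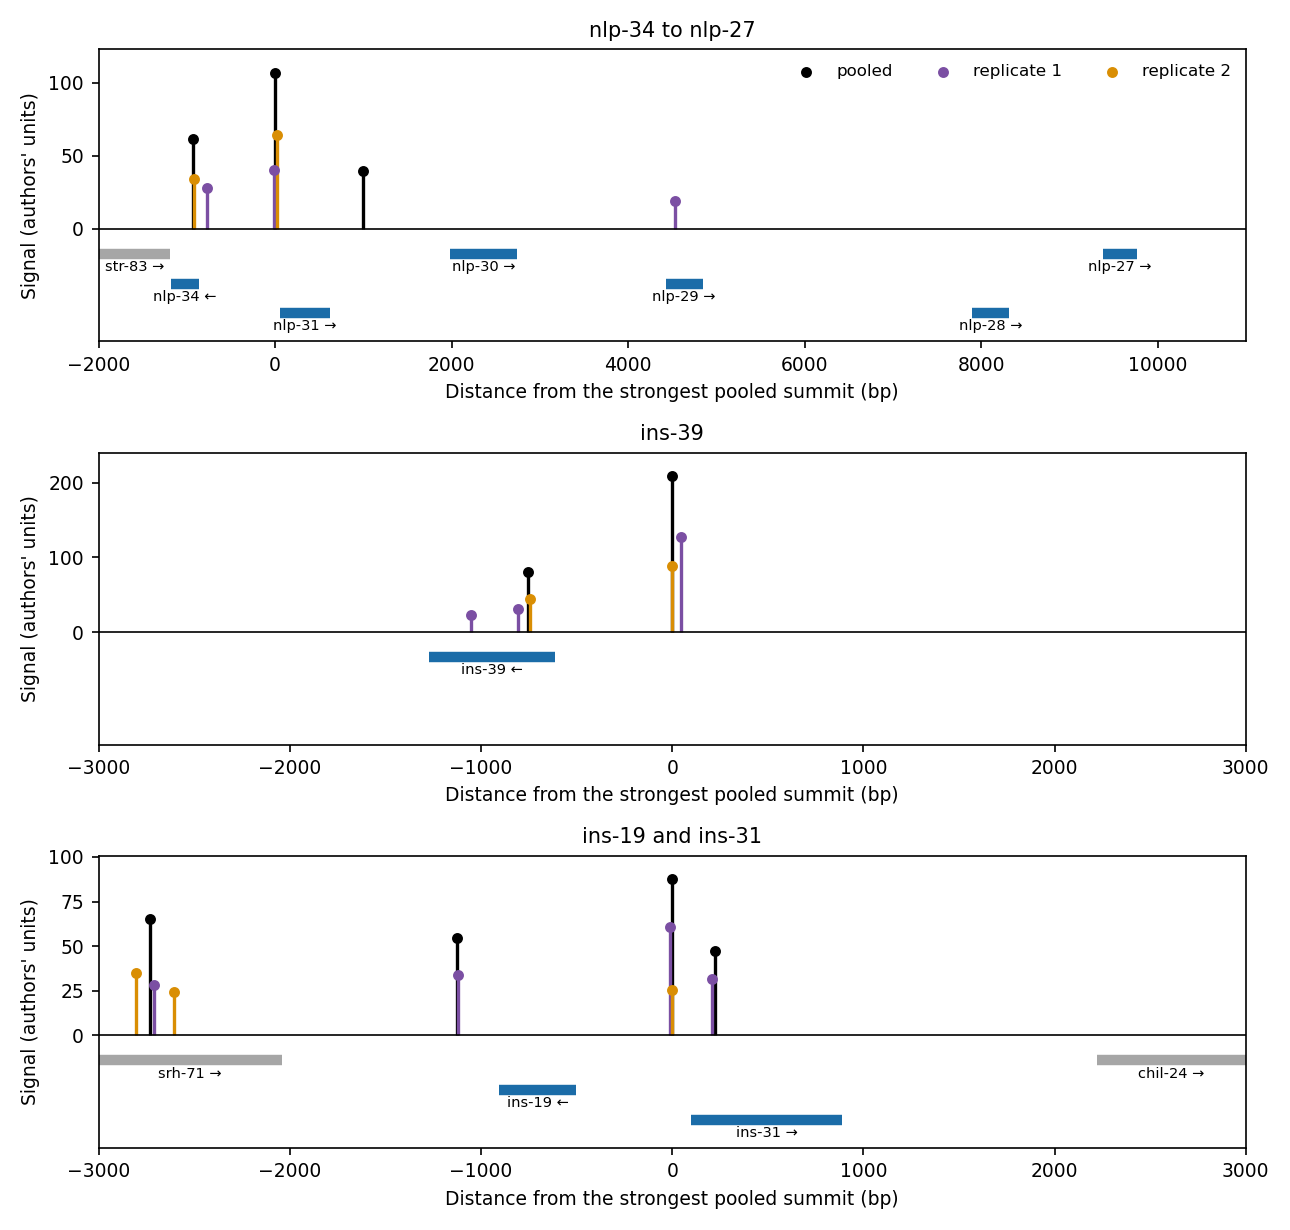
Summits by list (pooled, replicate 1, replicate 2; signal in the authors' units) and annotated genes without piRNA genes (peptide genes blue, others grey, arrows give the direction of transcription) at 3 loci, by distance in bp from the strongest pooled summit. At the nlp-34 to nlp-27 run the summits stand at the nlp-34 and nlp-31 end, at ins-39 the highest summit is 611 bp upstream of the gene, and at ins-19 and ins-31 the summit between the genes is higher in replicate 1 (60.9) than in replicate 2 (25.6).

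In the pooled relaxed list, which includes the optimal peaks, 45 of the 140 genes had a summit in the promoter window, or 32.1% (24.5 to 40.6%), against 6999 of all genes, or 35.0%. These were 12 of 31 flp genes (38.7%, 21.8 to 57.8%), 21 of 71 nlp genes (29.6%, 19.3 to 41.6%) and 12 of 38 ins genes (31.6%, 17.5 to 48.7%). The 45 genes had 53 distinct summits, since some genes had several and some shared 1. The median of the strongest signal per gene was 60.5 over the 45 peptide genes and 60.2 over the 6999 genes. The upper quartile was 66.4 for the peptide genes and 88.0 for all genes. The medians were thus close and the upper quartile was lower in the peptide genes. Among the 5000 strongest pooled peaks, 10 of the 140 genes had a promoter summit (7.14%), against 10.9% of all genes. Among the 10000 strongest it was 21 genes (15%), against 16.9% of all genes.

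**Figure D3:**
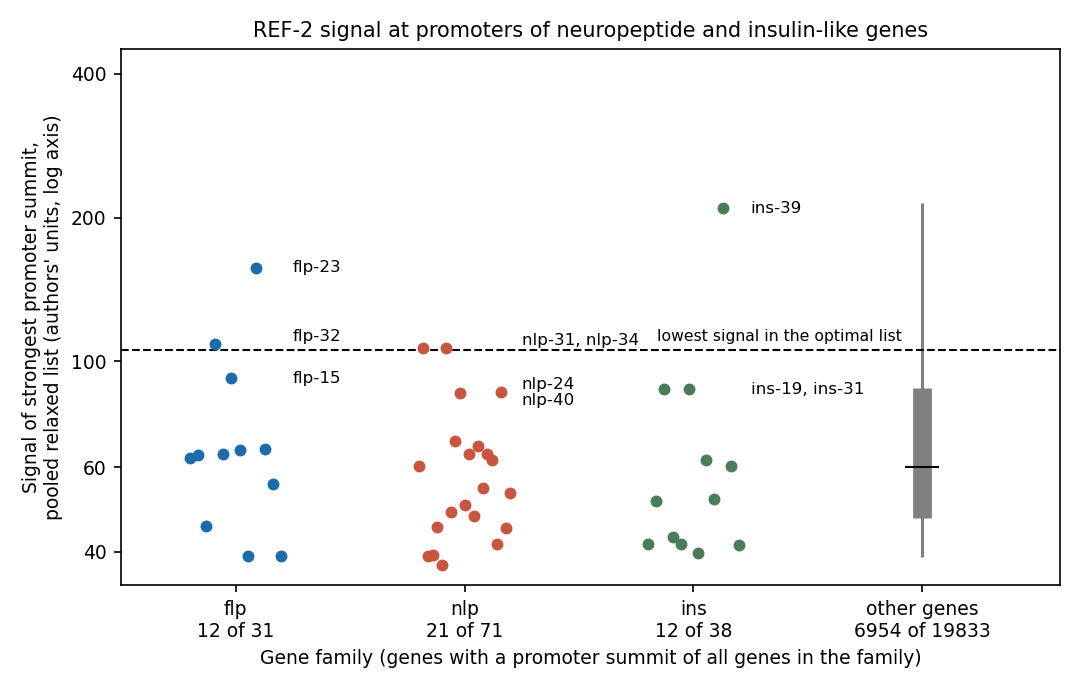
Signal of the strongest promoter summit in the pooled relaxed list (authors' units, log axis) for each flp, nlp and ins gene that had one (1 point per gene), and for the 6954 other protein-coding genes as the median (black line), the middle 50% (thick bar) and the 5th to 95th percentile (thin line). The dashed line is the lowest signal in the optimal list, 105.506; 5 peptide genes lie above it, and most of the others lie between 37.6 and 68.2.

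In the flp family, flp-15 followed flp-23 and flp-32. Its summit 859 bp upstream had 48.3 (replicate 1), 40.7 (replicate 2) and 92.3 (pooled), and it lay in an exon of the noncoding RNA gene ZK525.7. flp-2, whose peptides promote arousal in larval sleep, had a summit at 35 bp downstream in its 5′ UTR with 33.5 (replicate 1), 37.4 (replicate 2) and 65.6 (pooled). flp-12 had one 290 bp upstream with 30.4 (replicate 1), 39.2 (replicate 2) and 65.2 (pooled). All 3 were thus present in both replicates. flp-14 had a coding exon summit with 35.8 (replicate 1), 25.3 (replicate 2) and 63.9 (pooled). flp-4 (63.7 in the pooled list) had its upstream summit matched in replicate 2 alone, at 39.6. flp-9 (62.8 in the pooled list) had its summit matched in replicate 1 alone, at 39.9. Other flp genes known from behavioural work had weaker summits or none. flp-1, a regulator of locomotion, had no promoter summit in any list and 1 pooled gene body summit in its 3′ UTR at 42.9. flp-11, the sleep-inducing peptide gene of the RIS neuron, had no promoter summit and 1 gene body summit in replicate 2 alone, at 21.4. flp-8 had no summit in the promoter window or gene body in any list.

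In the nlp family, nlp-24, from the same group of small glycine-rich precursors as nlp-29, had a summit 80 bp inside its coding exon with 29.6 (replicate 1), 53.4 (replicate 2) and 86.2 (pooled). nlp-40 on chromosome I encodes the intestinal peptide that times defecation through the receptor AEX-2. Its summit 14 bp upstream had 48.8 (replicate 1), 37.8 (replicate 2) and 85.9 (pooled). Below the optimal threshold these were the strongest nlp genes, and each lay above the median of its list in both replicates (25.9 in replicate 1 and 30.4 in replicate 2). nlp-18 had an intron summit with 34.6 (replicate 1), 29.6 (replicate 2) and 68.2 (pooled). The same replicate 2 summit was also the match of a second, weaker nlp-18 summit 92 bp upstream. nlp-22, a sleep-promoting peptide gene of the RIA neurons, had a summit 489 bp upstream with 32.02 (replicate 1), 31.8 (replicate 2) and 63.9 (pooled). That summit lay inside a coding exon of its neighbour nlp-23. nlp-12, a cholecystokinin-like gene of the DVA neuron, had an intron summit with 24.6 (replicate 1), 39.7 (replicate 2) and 63.9 (pooled). nlp-81 had its summit matched in replicate 2 alone, at 41.8, with 66.4 in the pooled list. nlp-8, a sleep-promoting peptide gene of the ALA neuron, had no summit in the promoter window or gene body in any list.

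In the ins family, ins-19 and ins-31 came next after ins-39. They are divergent neighbours on chromosome II, and 1 intergenic summit lay 501 bp upstream of ins-19 and 99 bp upstream of ins-31. It had 60.9 in replicate 1 (rank 1452), 25.6 in replicate 2 (rank 21877) and 87.5 in the pooled list. Its log2 ratio of replicate 2 to replicate 1 was −1.25. Among the peptide gene summits matched in both replicates, it was the single one with more than a 2-fold difference. Summits matched in 1 replicate alone have no such ratio and were not compared. ins-7, a DAF-2 agonist known from feedback between the intestine and other tissues, had a summit 585 bp upstream with 28.1 (replicate 1), 33.1 (replicate 2) and 62.3 (pooled). It lay in an intron of htas-1, and the windows of htas-1 and ZK1251.3 held it too. ins-17 had a coding exon summit with 28.4 (replicate 1), 26.6 (replicate 2) and 60.5 (pooled). ins-33 had 21.8 (replicate 1), 28.8 (replicate 2) and 51.0 (pooled). ins-10 (51.4 in the pooled list) was matched in replicate 2 alone and ins-24 (42.9) in replicate 1 alone. ins-1 and ins-6, an antagonist and an agonist of DAF-2, had no summit in the promoter window or gene body in any list.

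Many of the peptide genes had no summit, as had many of all genes. In 82 of the 140 genes (58.6%) no list had a promoter summit, against 54.2% of all genes. In 56 genes (40%) no list had a summit in either the promoter window or the gene body, against 29.4% of all genes. These were 8 of 31 flp genes, 27 of 71 nlp genes and 21 of 38 ins genes (55.3%). The ins gene bodies are the shortest of the families, with a median of 649 bp. That of the 140 genes was 888 bp, against 2027 bp for all genes. The ins genes also had a pooled gene body summit in 8 of 38 cases (21.1%, 9.55 to 37.3%), against 16 of 31 flp genes (51.6%) and 26 of 71 nlp genes (36.6%). Over the 140 genes it was 50 (35.7%), against 46.8% of all genes. Per Mb of gene body the pooled list had 330 summits in the 140 genes and 317 in all genes, so per base the gene bodies carried relaxed summits about as often. The strongest gene body summits outside the promoter window were at ins-36 (an intron, 2102 bp downstream), nlp-6 (the 3′ UTR, 2334 bp downstream) and flp-4 (an intron, 6185 bp downstream). The ins-36 summit had 41.1 (replicate 1), 41.2 (replicate 2) and 81.3 (pooled), and it also lay in the promoter window of the gene Y53H1A.7. The nlp-6 summit had 32.9 (replicate 1), 44.9 (replicate 2) and 81.0 (pooled). The flp-4 summit had 33.2 (replicate 1), 40.3 (replicate 2) and 72.9 (pooled). Of these genes, ins-36 and nlp-6 were chosen after their values were seen.

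The replicates shared part of these weak summits. A promoter summit was in the relaxed lists of both replicates for 28 of the 140 genes (20%, 13.7 to 27.6%), against 24.9% of all genes. For 26 of the 28 genes the summits of the replicates lay within 200 bp of each other, and for flp-3 and nlp-21 they lay farther apart. By family it was 9 flp genes (29%), 13 nlp genes (18.3%) and 6 ins genes (15.8%). A further 14 genes had one in replicate 1 alone and 14 in replicate 2 alone. Of the 56 genes with a summit in either replicate, 50% had one in both, against 55.6% of 8949 genes. Of the 53 distinct pooled summits, 25 were matched within 200 bp in both replicates, 12 in replicate 1 alone, 13 in replicate 2 alone and 3 in neither. The matched share was 47.2%, against 60.3% of the 7269 pooled summits in any promoter window.

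The match with the replicates followed the rank of the summit in the pooled list, which was itself made from both replicates. The optimal list passed a threshold on agreement between the replicates and equals the 2129 strongest pooled peaks. A match there was thus largely fixed in advance. In the optimal range 4 of 4 summits were matched in both replicates, against 99.4% of 972 summits in any promoter window. At ranks from 2130 to 10000 it was 13 of 16 (81.2%), against 92.3% of all promoter summits in that range. At ranks from 10001 to 20000 it was 8 of 13 (61.5%), against 56.6%. At ranks from 20001 to 30000 none of the 20 peptide gene summits was matched in both replicates, with an exact interval up to 16.8%, against 17% of 2145 promoter summits. That share of all promoter summits lies at the edge of the interval. These 20 lowest summits make up 37.7% of the peptide gene summits and 29.5% of all promoter summits. Where both replicates had the summit, the log2 ratio of replicate 2 to replicate 1 had a median of 0.16 with an SD of 0.48 over 25 summits, and it ranged from −1.25 to 0.85. The median was 0.18 over the promoter summits of all genes and 0.18 over the optimal peaks. The offset between the replicates at peptide genes was close to that of the lists as a whole.

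**Figure D4:**
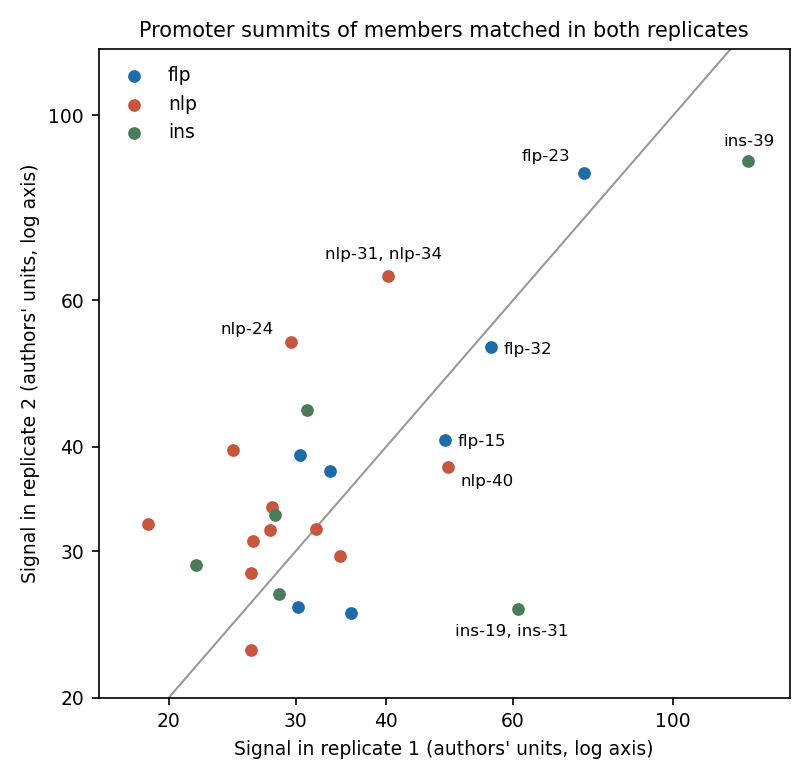
Signal in replicate 2 against replicate 1 (authors' units, both axes log) at the 25 pooled promoter summits of flp, nlp and ins genes that were matched within 200 bp in both replicates; 1 point per summit, coloured by family, with the line of equal signal. ins-39 and flp-23 are highest in both replicates, and the summit of ins-19 and ins-31 lies farthest from the line.

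The peptide genes stand in sparse parts of the genome. The median distance to the next gene upstream was 2522 bp for the 140 genes (5185 bp for flp, 2293 bp for nlp and 1927.5 bp for ins), against 936 bp for all genes. The distance was over 1000 bp for 105 of them (75%), against 48% of all genes. Among genes with such a long upstream distance, 3 of 105 peptide genes had an optimal-list promoter summit (2.86%), against 5.24% of 9593 genes. A pooled promoter summit was found in 31 of them (29.5%), against 31.8%. Where the next gene lay over 200 and up to 1000 bp away, 2 of 15 peptide genes had an optimal-list summit (13.3%), against 9.02%, and 6 a pooled one (40%), against 38.9%. At up to 200 bp, 0 of 20 had an optimal-list summit, against 4.17%, and 8 a pooled one (40%), against 36.6%. Chromosome X holds 34 of the 140 genes (24.3%) and 13 of 31 flp genes, against 13.7% of all genes. On X, 12 of the 34 peptide genes had a pooled promoter summit (35.3%), against 38.7% of all genes on X. On chromosome II, where 15 of the ins genes lie, it was 7 of 28 peptide genes (25%), against 38.5%. On I it was 36.8% of the peptide genes against 42.1% of all genes, on III 41.2% against 43.3%, and on IV 21.1% against 28.7%. Chromosome V went the other way in the pooled list, with 8 of 23 peptide genes (34.8%), against 26.4%. In the optimal list 2 genes on V had a summit (8.7%), against 3.86%, both from the summit shared by nlp-31 and nlp-34. By promoter summits in both replicates V was below all genes too, with 3 of 23 (13%), against 17.3%. By that count chromosome III alone was above all genes, with 8 of 17 (47.1%), against 31.5%.

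The relaxed summits of the peptide genes were most frequent close to the 5′ end and often lay past it. In the first 250 bp downstream there were 14.3 pooled summits per 100 peptide genes, against 8.83 per 100 of all genes. In the 250 bp just upstream there were 9.29 per 100 peptide genes, against 12.3 per 100 of all genes. The peptide gene values rest on 20 and 13 summits. The downstream bin reaches 249 bp, past the end of the promoter window at 200 bp. In the optimal list that bin held 0 summits of the peptide genes, against 0.381 per 100 of all genes. Many C. elegans transcripts are trans-spliced, so an annotated 5′ end can lie downstream of the start of transcription. A summit at the true start would then be counted as upstream. How far this applies to the peptide genes was not tested. Of the 53 summits, 27 were intergenic (50.9%), 12 in coding exons (22.6%), 5 in 5′ UTRs, 5 in introns and 4 in noncoding exons. Coding exons make up 13.1% of the bases of the peptide genes' promoter windows and 21.5% of those of all genes. The share of pooled promoter summits in coding exons was 22.6% in both sets. None of the 4 optimal-list summits was in a coding exon, and 19 of 972 (1.95%) were over all genes.

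**Figure D5:**
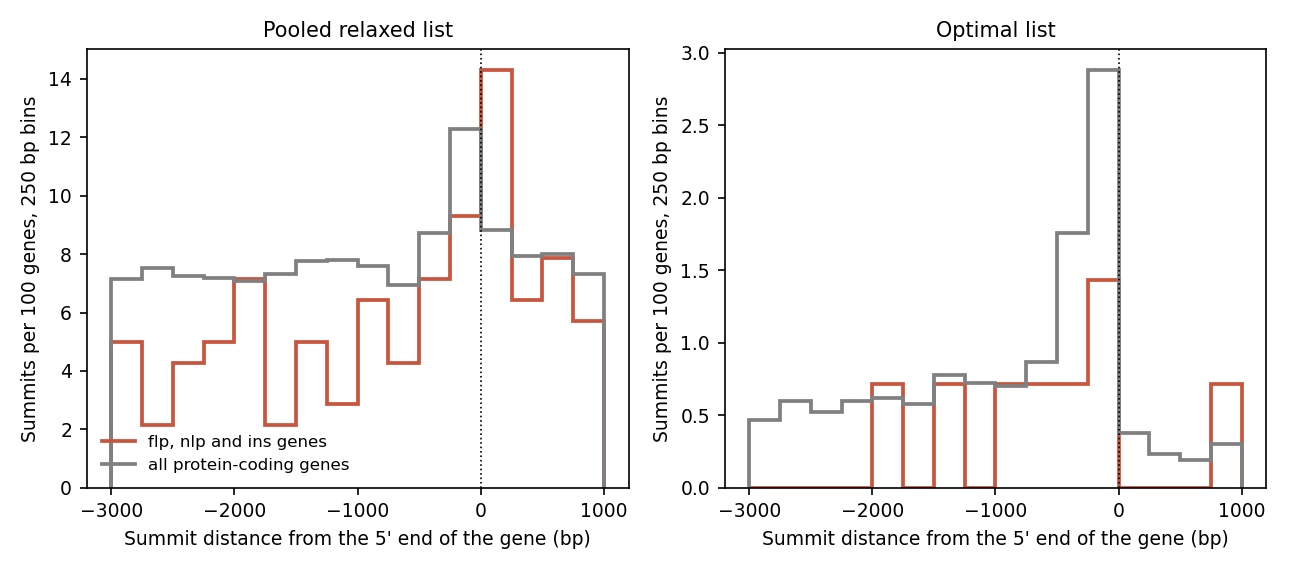
Summits per 100 genes in 250 bp bins by distance in bp from the 5′ end (negative is upstream, dotted line at 0), for the flp, nlp and ins genes and all protein-coding genes, in the pooled relaxed list (left) and the optimal list (right; separate vertical scales). In the pooled list the peptide genes peak at 14.3 just downstream of the 5′ end and all genes at 12.3 just upstream.

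Several peptide genes had strong REF-2 summits nearby but outside the promoter window. Within 5000 bp of the 5′ end, 17 of the 140 genes had an optimal-list summit (12.1%, 7.24 to 18.7%), against 18.5% of all genes. They were 2 flp, 8 nlp and 7 ins genes. The 17 include the 5 genes with an optimal-list promoter summit, among them both flp genes, so no flp gene was added. nlp-30 and nlp-29 were counted through the summit shared by nlp-31 and nlp-34, and ins-15 and ins-14 shared a summit. The strongest summit was 807 bp downstream of the 5′ end of nlp-4, with a pooled signal of 430.0 (rank 55), within 200 bp of the snoRNA gene F59C6.15. It was intergenic, past the 3′ end of nlp-4, and lay in the promoter window of F59C6.18. One 1336 bp upstream of nlp-76, with 352.7 (rank 89), lay in exons of a tRNA gene and of the ncRNA C02B4.8. One 1892 bp downstream of the 5′ end of ins-17, with 356.6 (rank 86), lay in an exon of the ncRNA F56F3.10 and in the windows of ifet-1 and rps-1. One near ins-15 and ins-14, with 332.8 (rank 112), lay in the window of exos-8. The summit 3841 bp upstream of nlp-46, with 267.7 (rank 241), was intergenic, in no promoter window and not within 200 bp of a noncoding gene. These genes were named after their values were seen. The median distance from the 5′ end to the nearest optimal-list summit was 21758 bp for the 140 genes and 20344 bp for all genes.

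Peptide genes that lie in runs differed in whether they had summits. Members whose neighbours in the set lie within 5000 bp formed 12 runs. Pooled summits were absent from the runs of ins-2 and ins-3, of ins-15 and ins-14, and of ins-21, ins-22 and ins-23, each taken with 1000 bp to both sides. The run of ins-27, ins-24, ins-30 and ins-26 on chromosome I had 3 pooled summits, the strongest at 53.5, and none of its genes had a promoter summit in both replicates. The run of nlp-45, nlp-22, nlp-23 and nlp-2 on chromosome X had 5 pooled summits with signals from 42.7 to 63.9, and 2 of its 4 genes had a promoter summit in both replicates. In the run of flp-28, flp-3 and flp-2 on chromosome X, flp-2 had the same summit in both replicates. At flp-3 replicate 1 had a promoter summit at −368 bp from the 5′ end and replicate 2 had another at −911 bp.

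Short sequence elements were searched on both strands within 100 bp of each summit. A Zic-type core, CAGCAGG or CAGCGGG, was found at 0 of the 53 peptide gene summits (interval up to 6.72%), against 3.36% of the 7269 pooled promoter summits and 1.58% of windows of the same length centred 400 bp upstream of all 5′ ends. Within 200 bp to each side it was at 2 of 53 (3.77%), against 5.41%. In the whole promoter windows of 1201 bp the core was present in 13 of 140 peptide genes (9.29%), against 9.03% of all genes, with 7 of 38 ins genes, 5 of 71 nlp genes and 1 of 31 flp genes. Of these 13 genes 5 had a pooled promoter summit, namely ins-33, ins-17, ins-7, ins-10 and flp-2. Over all genes it was 44.1% of those with the core and 34.1% of those without.

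GAGAGAG was within 100 bp of 6 of the 53 summits (11.3%), against 9.4% of all pooled promoter summits and 3.01% of the windows upstream of all genes. The 6 summits belong to nlp-31 with nlp-34, nlp-79, nlp-2, nlp-7, ins-33 and flp-26, and the optimal one among them is that of nlp-31 and nlp-34. Of the 25 peptide genes with GAGAGAG in the promoter window, 15 had a pooled promoter summit (60%), against 30 of the 115 without it (26.1%). Over all genes these shares were 48.1% and 32.3%. The E-box CAGCTG was at 4 of 53 summits (7.55%), against 5.68%. AGATAAG was at 1 (1.89%), against 1.83%. The median GC content within 100 bp of the summits was 43.3% for the peptide genes and 41.8% for all promoter summits. These matches describe the windows, and what is bound there was not tested.

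The genes around the peptide pathway were counted by role in the same peak lists. These gene sets were chosen with earlier results of these data known, so their shares are descriptive only. Of 23 genes for peptide processing and dense core vesicles, 13 had a pooled promoter summit (56.5%, 34.5 to 76.8%), and 12 had one in both replicates (52.2%, 30.6 to 73.2%), against 35.0% and 24.9% of all genes. Their median gene length was 5035 bp. The optimal list had a promoter summit at 1 of the 23 (4.35%, 0.11 to 21.9%), against 6.29% of all genes, and a gene body summit at 3 (13%, 2.78 to 33.6%), against 3.06%. No pooled promoter summit was found at 10 of them, among these the amidating enzyme genes pamn-1 and pgal-1, the convertase gene aex-5 and the neprilysin genes nep-2 and nep-21. The carboxypeptidase gene egl-21 had 49.8 (replicate 1), 52.0 (replicate 2) and 102.6 (pooled). The proprotein convertase gene egl-3 had 48.3 (replicate 1), 48.9 (replicate 2) and 97.2 (pooled). sbt-1, the chaperone of EGL-3, had 35.1 (replicate 1), 55.4 (replicate 2) and 86.4 (pooled). These processing genes were named after their values were seen. The optimal-list promoter summit was at unc-108, the RAB-2 GTPase of vesicle maturation, with 55.8 (replicate 1), 86.6 (replicate 2) and 145.1 (pooled). The gene body summits were at unc-108 (123.9), the furin-like convertase gene kpc-1 (146.2) and the protein kinase C gene pkc-1 (136.9).

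The receptor genes had fewer promoter summits. Of 106 genes of neuropeptide receptor families, 11 had a pooled promoter summit (10.4%, 5.3 to 17.8%), and 3 had one in both replicates (2.83%, 0.587 to 8.05%). Both intervals lie below the shares of all genes and below those of the 140 peptide genes. For 1 of these 3 receptor genes the summits of the replicates lay within 200 bp of each other (0.943% of the 106, against 22.6% of all genes). For npr-25 and npr-16 they lay farther apart. In the gene body 40 of the 106 had a pooled summit (37.7%, 28.5 to 47.7%), against 46.8% of all genes, at a median length of 3825.5 bp. npr-23 was the single receptor gene with an optimal-list promoter summit, 21 bp downstream of its 5′ end, with 56.7 (replicate 1), 72.0 (replicate 2) and 116.7 (pooled). Of 12 insulin signalling genes, 3 had a pooled promoter summit (25%, 5.49 to 57.2%), against 35.0% of all genes, and none an optimal one (interval up to 26.5%), against 6.29%. An optimal-list summit in the gene body was found at 2 of them (16.7%, 2.09 to 48.4%), against 3.06% of all genes; the median length of the 12 was 6962 bp. The 2 genes with one were the FOXO gene daf-16 (191.1) and the kinase gene pdk-1 (137.5). daf-2, the insulin receptor gene, had no promoter summit in any list. Of 8 peptide genes outside the 3 name families, 5 had a pooled promoter summit (62.5%, 24.5 to 91.5%), against 35.0% of all genes, and 1 had a promoter summit in both replicates (12.5%), against 24.9%. lury-1, a luqin-like peptide gene, was the strongest with 58.0 (replicate 1), 36.2 (replicate 2) and 99.6 (pooled), and daf-28, an insulin-like gene, had none.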

How the data were processed

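REF-2 ChIP-seq was measured in 1 group of 2 replicates. The authors deposited narrowPeak lists on ce11 and ce10, and the 4 ce11 lists were used, because the gene models were on WBcel235 (Ensembl release 115), the same assembly. Per the labels and the file layout, the deposited signal is the authors' value per peak, and the deposited −log10 q value is the authors' too; the sources used here do not give the peak caller, aligner or scaling between lists, and name a control as possible only. The pooled lists were made by the authors from both replicates, and the optimal list equals the 2129 strongest pooled peaks.

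A summit was counted for each gene whose promoter window (1000 bp up, 200 bp down) or body held it. Replicate summits were matched within 200 bp. Computation used Python 3.11.15, pandas 2.3.3, numpy 2.4.6 and scipy 1.17.1, and the counting was tested on simulated data. No test was run, since the design has no second group. Shares carry exact Clopper-Pearson 95% intervals. The members and lists were chosen with earlier results of these data known. Named genes are those with an optimal-list summit, the 8 per family with the highest pooled promoter signal, and flp-1, flp-11, flp-8, nlp-8, nlp-12, nlp-29, ins-1, ins-6, ins-7 and ins-39; other named genes are said to be chosen after their values were seen or belong to a run or count described. Nothing in the sources says that the replicates came from separate cultures beyond the label biological. Alternatives tried were other windows, transcript starts, peak overlap, noncoding and shared summits left out, shorter lists, each replicate left out and other match and motif distances.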

Additional observations from a re-analysis of the deposited data

How the results depend on the processing

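The count of 5 peptide genes with an optimal-list promoter summit (3.57%, against 6.29% of all genes) depended on the setting. It was 3 with 500 bp upstream (ins-39 and nlp-34 lost), or 2.14%, against 4.86% of all genes. Without summits near noncoding genes it was 3 (flp-23 and flp-32 lost), or 2.14%, against 5.07%. With summits in 1 gene's window only it was 3 (nlp-31 and nlp-34 lost), or 2.14%, against 3.18%. In the stronger part of the optimal list it was 2 (flp-23 and ins-39), or 1.43%, against 3.8%. Leaving out a replicate gave 4 to 5, counted among the strongest peaks of the remaining replicate's relaxed list. That list holds background and took the place of the optimal list, which needs both replicates. Replicate 2 alone lost flp-32 (2.86%, against 5.98% of all genes). Replicate 1 alone lost nlp-31 and nlp-34 and gained ins-19 and ins-31 (3.57%, against 6.51%). The count of 0 in gene bodies was 4 when any base of the peak counted (flp-32, nlp-31, nlp-4 and nlp-40), or 2.86%, against 5.89% of all genes. The 45 genes with a pooled promoter summit were 21 among the 10000 strongest peaks (15%, against 16.9% of all genes). The relaxed list of replicate 1 and that of replicate 2 gave 42 genes each, of which 34 and 35 were among the 45. These 42 genes are 30%, against 35.4% of all genes in replicate 1 and 34.3% in replicate 2. The 28 genes with one in both replicates were 18 among the 20000 strongest peaks (12.9%, against 18.2% of all genes). Among the 10000 strongest they were 9 (6.43%, against 11.5%). These changes in count, apart from those on leaving out a replicate, follow from fewer peaks or a narrower interval, or for the overlap from a wider one. A Zic-type core was at 0 of 53 summits within 50 or 100 bp and at 2 (3.77%) within 200 bp. The other alternatives left the gene counts within 1.5 times the reported ones and the median ratio between replicates within its SD. Depth is unknown, so a gene without a summit may hold one at another depth. No paired analysis was possible because the study has 1 group.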
